A study of Mus musculus with 12 samples.

Results

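This account concerns alternate day fasting (ADF) in control muscle: 3 libraries of ADF GFP muscle were set against 3 libraries of fed GFP muscle, which are 6 of the 12 libraries in the series. They were chosen by their diet and vector labels alone, and all 16007 genes that passed a filter on low counts were tested. All 6 come from the tibialis anterior, a fast muscle of the shin, of C57BL/6 male mice aged 13 weeks. The muscles carried a vector for GFP, which the labels describe as empty, so both diets share the transduction and no untransduced muscle was measured. The ADF mice went through 3 rounds of alternate day fasting, and the fed mice ate ad libitum. The other 6 libraries are ADF Crtc2 and fed Crtc2 muscle, 3 each, from the same strain, sex, age and muscle with a Crtc2 vector; Crtc2 is a partner protein of the CREB transcription factors. The labels do not say whether the ADF muscles were taken after a fasting day or a feeding day, nor at what hour. Nothing says that each library is a separate mouse, so p-values here cover only library-to-library spread, part of which may be technical. For library preparation the protocols list NEBNext Ultra II directional and also TruSeq Stranded mRNA reagents, assigning neither, so a kit that followed the diet cannot be told apart from fasting.

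Skeletal muscle takes up a large part of the glucose a fed mouse clears, stores it as glycogen, and turns to fatty acids when food is withdrawn. The switch is set largely at pyruvate dehydrogenase, the mitochondrial complex that commits pyruvate to oxidation and that its kinases turn off. Fasting also lowers insulin and raises glucocorticoids, and both act through transcription factors, FoxO proteins and the glucocorticoid receptor, on genes of protein breakdown, which releases amino acids for glucose production in the liver.

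The 3 ADF libraries held 26253970, 31575929 and 34610417 counts and the 3 fed libraries 24232450, 28700850 and 25690795 counts. Between 15277 and 16831 genes were detected in an ADF library and between 14436 and 16347 in a fed library. Fed libraries 1 and 3 stood apart. Fed library 1 lay farthest out on the first principal component of these 6 libraries (34% of the variance), at 166.7, with fed library 3 at 75.85, fed library 2 at -2.444 and the ADF libraries between -87.98 and -75.77. On the second component (27.8%) fed library 3 lay at -171.5 and fed library 1 at 109.9, with fed library 2 at -2.809 and the ADF libraries between 8.874 and 34.64. Over 2318 genes that averaged 1 to 3 counts scaled to library size (CPM), 5.87 to 19.4% of values were 0 in the ADF libraries and 12.1 to 32.7% in the fed libraries. Of 6 loci that collect reads from ribosomal RNA, 5 were called higher under ADF. The sum over the 6 was 3361, 1402 and 2039 CPM under ADF and 859, 592 and 572 CPM under feeding. The remaining locus, the only one annotated as ribosomal RNA, overlapped between diets and was not called. It had 1472, 484 and 449 CPM in the ADF libraries, against 631, 436 and 398 CPM in the fed libraries. Lars2, the gene for mitochondrial leucyl-tRNA synthetase, is one of these loci and is not read here as that gene's own transcript. Summed markers of the muscle fibre ran from 180000 to 264000 CPM under ADF and from 167000 to 221000 CPM under feeding, so the tissue label was met in all 6 libraries. In bulk muscle, fewer cells of a type and less RNA per cell cannot be told apart.

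Of the 16007 genes tested, 1140 differed between ADF and feeding (7.12%), of which 650 were higher under ADF (4.06%) and 490 lower (3.06%). A difference is called here at an adjusted p under 0.05 in edgeR's quasi-likelihood test, with Benjamini-Hochberg adjustment over all genes tested, and every adjusted p below is from that test. The values of the 3 ADF libraries did not overlap those of the 3 fed libraries in 4095 of the 16007 genes tested (25.6%) and in 1129 of the 1140 called, which the test chose for such a separation. The change was at least 2-fold in 739 genes and at least 4-fold in 190, of which 77 rose and 113 fell, so fewer of the largest changes were rises than falls. Calls were rare among weakly measured genes, at 0% below 1 CPM and 1.24% from 1 to 10 CPM. They made up 10.3% from 10 to 100 CPM and 31.9% from 100 to 1000 CPM. Of the 2541 genes below 1 CPM, DESeq2 gave 1773 an adjusted p and called 78. Among the 81 genes above 1000 CPM, 22 rose and 3 fell. The count depended on single libraries: it was 711, 677 and 740 without ADF library 1, 2 or 3. The balance of the directions depended on the scaling, with 476 higher and 596 lower when libraries were scaled to their totals, and 625 higher and 750 lower when only genes of at least 10 CPM were fitted. Gene groups are described below by how many of their tested members were called, beside a median log2 fold change of -0.01 over all genes tested and 0.05 over the 7888 genes of at least 10 CPM. Of those 7888 genes 13.6% were called, and a group's count is to be read beside that share. Groups near it include the mTORC1 pathway (16.2%), matrix remodelling (16.7%) and the clock genes (17.4%). A group with a median from 100 to 1000 CPM is to be read beside the 31.9% instead. Near that share lay pyruvate dehydrogenase and its regulators (35.7%, at a median of 180 CPM) and glycogen metabolism (36.4%, at 188 CPM). Groups below it include the TCA cycle (14.3%, at 418 CPM), calcium handling (16.7%, at 128 CPM) and proteasome subunits (13.5%, at 118 CPM).

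**Figure D1:**
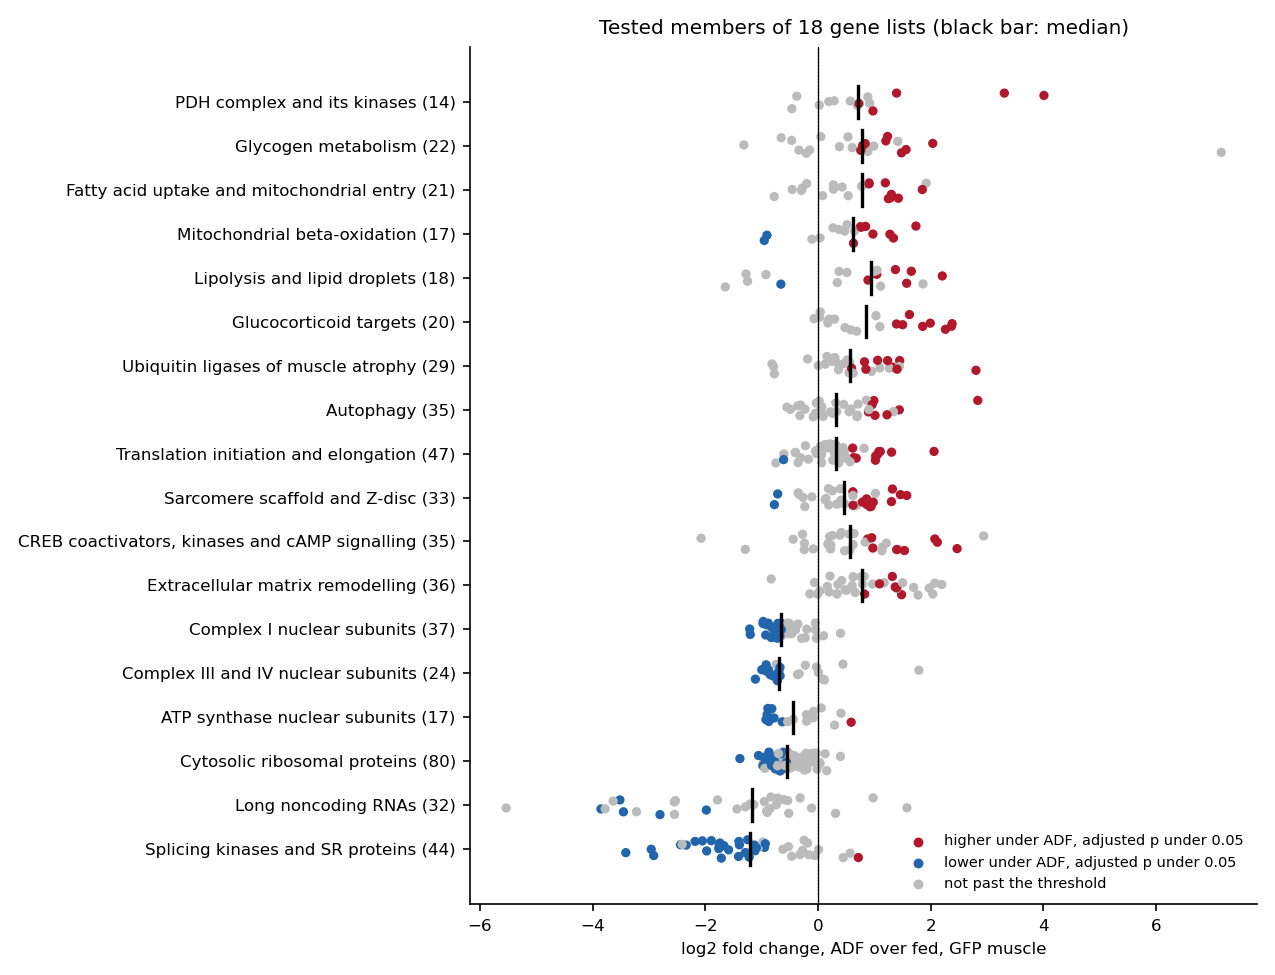
Log2 fold change (ADF over fed, horizontal axis) of each tested member of 18 gene groups, 1 row a group, with members called higher in red, called lower in blue, not called in grey, and the group's median as a black bar. The splicing group and the long noncoding RNAs lie left of 0, with medians of -1.20 and -1.17, and glucocorticoid targets, lipolysis and glycogen metabolism lie to the right, with medians of 0.86, 0.94 and 0.77.

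Regulators of pyruvate dehydrogenase, the gate from sugar to the TCA cycle, rose under ADF. Pdk4, the fasting-induced kinase that turns pyruvate dehydrogenase off, had 1801, 2309.5 and 2067 CPM in the ADF libraries, against 111, 158 and 355 CPM in the fed libraries. The lowest ADF library was several times the highest fed one (log2 fold change 3.31 ± 0.51, adjusted p = 0.00286; the error is a standard error, as for all that follow). Pdk2, the kinase most abundant in many tissues, had 1019, 847 and 735 CPM under ADF and 389, 305 and 295 CPM under feeding (1.39 ± 0.18, adjusted p = 3.61e-05). Pdpr, a regulatory subunit of the phosphatase that turns the complex back on, had 184, 166 and 153 CPM in the ADF libraries, against 7.36, 19.9 and 3.98 CPM in the fed libraries (4.01 ± 0.65, adjusted p = 0.00419). These 3 genes did not overlap between diets and kept their calls under each alternative tried. Dlat and Pdha1, core subunits of the complex itself, were also called (0.98 ± 0.25 and 0.73 ± 0.21), but both calls ended when a single library was left out. The call of Dlat was lost without ADF library 1 (0.0768), ADF library 2 (0.0806), fed library 1 (0.086) and fed library 2 (0.0568), with the adjusted p in parentheses here and below, and that of Pdha1 without ADF library 1 (0.0899), ADF library 2 (0.176) and fed library 1 (0.214). In all, 5 of 14 rose and 0 fell among the genes of the complex and its regulators (median 0.71). The rises numbered 3 without ADF library 1 or 2 or fed library 1, with libraries scaled to their totals or with the 6 GFP libraries fitted alone.

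**Figure D2:**
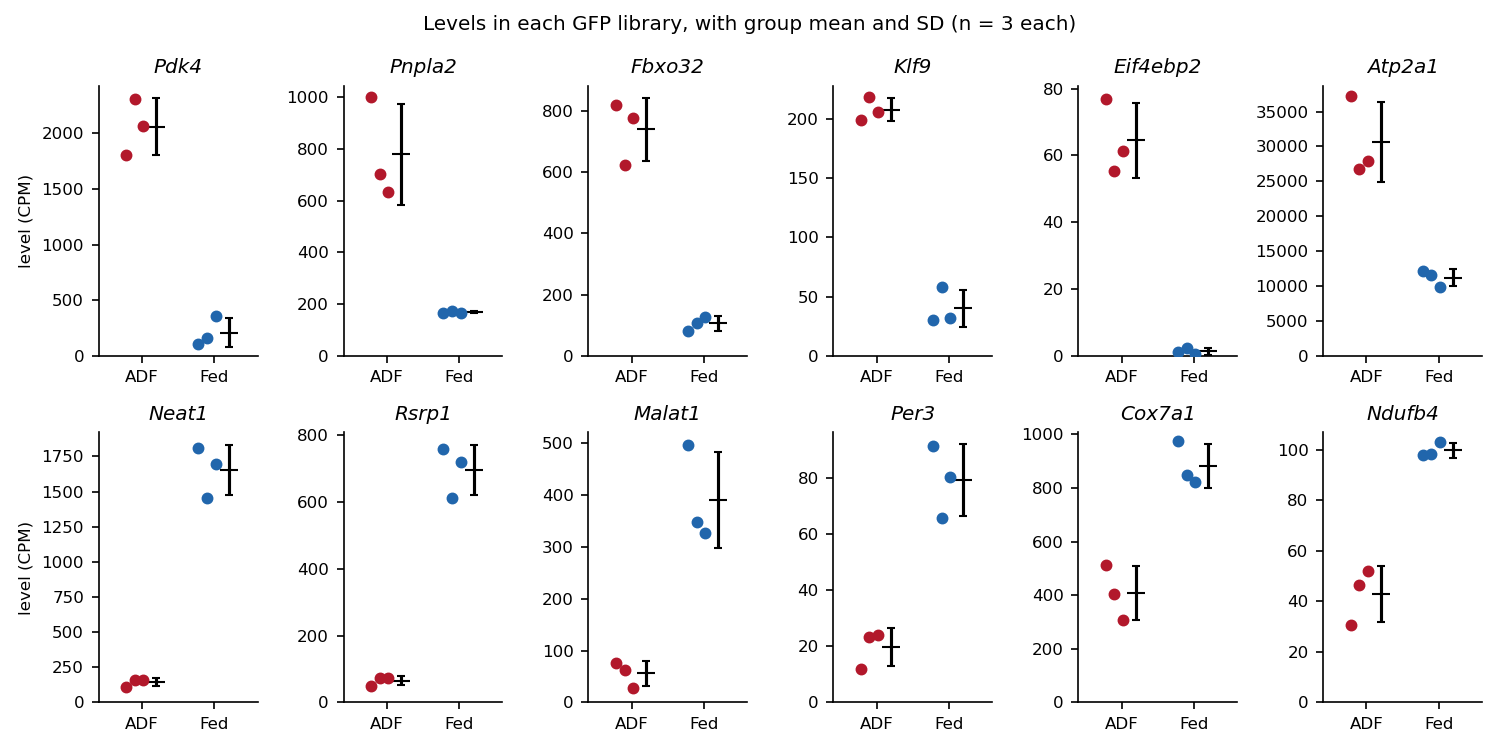
CPM of 12 genes in each library, 1 panel a gene, with the ADF libraries left and the fed libraries right, points for libraries and bars for the mean ± SD (n = 3 each). In the panels of Pdk4, Pnpla2, Fbxo32, Klf9, Eif4ebp2 and Atp2a1 every ADF point lies above every fed point, and in those of Neat1, Rsrp1, Malat1, Per3, Cox7a1 and Ndufb4 every ADF point lies below every fed point.

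Genes that make and break down glycogen rose as well. Among genes of glycogen metabolism 8 of 22 rose and 0 fell (median 0.77). Gys1, the muscle glycogen synthase, had 1319, 1028 and 824 CPM in the ADF libraries, against 351, 344 and 378 CPM in the fed libraries (1.56 ± 0.18, adjusted p = 7.56e-06). Gaa, the lysosomal enzyme that digests glycogen, had 406, 265 and 309 CPM under ADF and 77.5, 114 and 47 CPM under feeding (2.04 ± 0.31, adjusted p = 0.000488). Neither gene overlapped between diets. Ugp2, which makes the UDP-glucose that the synthase uses, rose by 1.20 ± 0.22, and Ppp1r3a, the subunit that brings a phosphatase to glycogen, by 1.23 ± 0.21. The group's count was 4 without fed library 3 and 5 without ADF library 1 or 2. Of the genes of glucose uptake and glycolysis 1 of 25 rose and 0 fell: Tbc1d1, which restrains the movement of glucose transporters to the cell surface until it is phosphorylated, with 265, 156 and 231 CPM in the ADF libraries, against 86.6, 103 and 32.2 CPM in the fed libraries (1.55 ± 0.31, adjusted p = 0.00466). The rises numbered 2 without ADF library 2, 3 with libraries scaled to their totals, with no filter, with DESeq2 or with the length trend removed and 4 without fed library 2. The falls numbered 1 with genes of at least 10 CPM alone or with DESeq2 and 2 with libraries scaled to their totals. Of 21 genes of the TCA cycle 3 rose, and Ogdh, a subunit of the 2-oxoglutarate dehydrogenase complex, was the clearest, with 1749, 1581 and 1174 CPM under ADF and 499, 508 and 713 CPM under feeding (1.39 ± 0.18, adjusted p = 3.88e-05). The call of Sucla2, a subunit of succinyl-CoA ligase, was lost without ADF library 2 (0.216) and fed library 1 (0.157). The cycle's count was 1 without ADF library 2 or fed library 1 or with the 6 GFP libraries fitted alone and 5 with no filter.

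Genes of fat release, uptake and oxidation rose at several steps. Pnpla2, the lipase ATGL that takes the first fatty acid off a triglyceride (chromosome 7, 141455198 to 141460743 in GRCm38), had 1002, 703 and 635 CPM in the ADF libraries, against 166, 174 and 167 CPM in the fed libraries (2.21 ± 0.20, adjusted p = 4.4e-07). The fed values lay within a few CPM of each other and far below the ADF values. Among genes of lipolysis and lipid droplets 6 of 18 rose and 1 fell (median 0.94), among them the droplet coat genes Plin4 (1.57 ± 0.21) and Plin5 (1.66 ± 0.34) and Fitm2 (0.89 ± 0.19), which helps droplets form. The single fall, of Fitm1, a relative of Fitm2, was lost without ADF library 2 or 3, without fed library 1 or 3 and with the length trend removed. Acsl1, which joins coenzyme A to fatty acids, had 551, 485 and 455 CPM under ADF and 101, 172 and 140.2 CPM under feeding (1.85 ± 0.23, adjusted p = 1.87e-05). Slc27a1, a fatty acid transporter of the cell surface, rose by 1.43 ± 0.24 and Vldlr, a receptor for triglyceride-rich lipoproteins, by 1.30 ± 0.20. Both sides of the malonyl-CoA balance that governs fatty acid entry rose: Acacb, which makes malonyl-CoA at the mitochondrion, by 1.29 ± 0.20 (adjusted p = 0.000199), and Mlycd, which destroys it, by 1.19 ± 0.21 (adjusted p = 0.000814). Of 21 genes of fatty acid uptake and mitochondrial entry 8 rose and 0 fell, and 5 rose without ADF library 2. Cpt1b, the entry enzyme of the muscle mitochondrion, was measured at 12.9, 10.2 and 8.55 CPM in the ADF libraries, against 5.91, 4.73 and 7.11 CPM in the fed libraries, and its difference was not called (0.83 ± 0.52, adjusted p = 0.411).

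In the mitochondrial matrix, the acyl-CoA dehydrogenases for very long, short and medium chains rose: Acadvl by 1.34 ± 0.23, Acads by 1.28 ± 0.24 and Acadm by 0.84 ± 0.18. Acadvl had 364, 265 and 240.5 CPM in the ADF libraries, against 73.1, 141 and 129 CPM in the fed libraries, and the groups did not overlap (adjusted p = 0.000695). Of 17 genes of mitochondrial beta-oxidation 8 rose and 2 fell. The rises numbered 4 without ADF library 2 or fed library 1 or with libraries scaled to their totals. They numbered 5 without ADF library 1 and 3 with the replicate number as a block. The falls numbered 0 with the length trend removed and 1 without ADF library 3. Peroxisomes also shorten fatty acids, and of 28 of their genes 2 rose, among them Cat, the catalase that removes the peroxide made there. Cat had 182, 178 and 166 CPM under ADF and 53.9, 70.3 and 57.4 CPM under feeding (1.53 ± 0.20, adjusted p = 4.55e-05). Of 7 genes of ketone body use 0 were called, and of 31 genes of fatty acid and cholesterol synthesis 2 rose, neither of which kept its call when each library was left out in turn. Glycerolipid synthesis was split. Gpam, the mitochondrial acyltransferase that starts it, had 214, 277 and 215 CPM in the ADF libraries, against 54.3, 65.5 and 28.1 CPM in the fed libraries (2.25 ± 0.25, adjusted p = 7.11e-06), and Lpin1, a phosphatidate phosphatase that is also a transcriptional coregulator, rose by 1.29 ± 0.24. Taz, the tafazzin that remodels cardiolipin, fell, with 32.7, 47.8 and 45.5 CPM under ADF and 121, 98.2 and 123 CPM under feeding (-1.44 ± 0.22, adjusted p = 0.000175).

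Many nuclear genes for the respiratory chain were lower in control muscle. Over 82 tested subunits of complexes I to IV and the ATP synthase, 41 were lower under ADF and 2 higher, with a median of -0.65. Complex I had 20 of 37 lower, complexes III and IV 14 of 24, and the ATP synthase 7 of 17, and complex II had 1 of 4 higher and 0 lower, or 1 lower with libraries scaled to their totals, with genes of at least 10 CPM alone or with DESeq2. The falls of complex I numbered 7 without ADF library 3 or with the length trend removed and 10 without ADF library 2. Those of complexes III and IV numbered 2 with the length trend removed, 7 without ADF library 3 and 9 without ADF library 2. Cox7a1, the muscle isoform of a cytochrome c oxidase subunit, had 512, 403 and 309 CPM in the ADF libraries, against 974, 848 and 822 CPM in the fed libraries (-1.11 ± 0.19, adjusted p = 0.000699). Ndufb4 and Ndufc1 are accessory subunits of complex I. Ndufb4 had 30.7, 46.5 and 52 CPM under ADF and 98, 98.3 and 103 CPM under feeding (-1.21 ± 0.21, adjusted p = 0.000949), and Ndufc1 had 176, 184 and 165 CPM under ADF and 294, 378 and 360.0 CPM under feeding (-0.97 ± 0.16, adjusted p = 0.000644). In these 3 genes no ADF library reached the lowest fed library. Of the ATP synthase, Atp5e fell by 0.92 ± 0.18 and Atp5mpl fell by 0.90 ± 0.16. The 2 that rose were Sdha and Atp5a1. Sdha, the flavoprotein subunit of complex II and an enzyme of the TCA cycle, had 1445, 1287 and 1044 CPM in the ADF libraries, against 557, 799.5 and 655 CPM in the fed libraries (0.91 ± 0.18, adjusted p = 0.00303). Atp5a1, the alpha subunit of the ATP synthase, rose by 0.59 ± 0.17 (adjusted p = 0.0337), and 0 subunits of the synthase were higher without ADF library 1 or 2 or without fed library 1, 2 or 3. The count of lower subunits was 26 without ADF library 2 and 19 without ADF library 3. It was 20 with the replicate number as a block and 14 with the length trend removed. Genes of the mitochondrial genome were not analysed here.

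Most of the subunits are short transcripts, and length moved with the diet. Among 7887 genes of at least 10 CPM, those in the lowest 20% by exon length (up to 2485 bp) had a median log2 fold change of -0.26, with 10.3% lower and 2.98% higher, against medians of 0.07, 0.14, 0.14 and 0.16 in the successive bins of longer genes. In the bin of the longest genes 5.32% were lower and 11.4% higher. Spearman's rho between length and log2 fold change was 0.17 across these genes, which share their libraries and are not independent. Of the 82 subunits, 60 lie in the shortest bin, with 34 lower, 0 higher and a median of -0.68; the other 1429 genes of that bin, without ribosomal proteins, had 111 lower, 47 higher and a median of -0.23. With the length trend removed from each library, an alternative chosen after seeing the data, 14 subunits were lower and 3 higher (median -0.31), and the calls of Cox7a1 and Cox8b ended while those of Ndufb4 and Ndufc1 held. What underlies this trend was not tested.

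**Figure D3:**
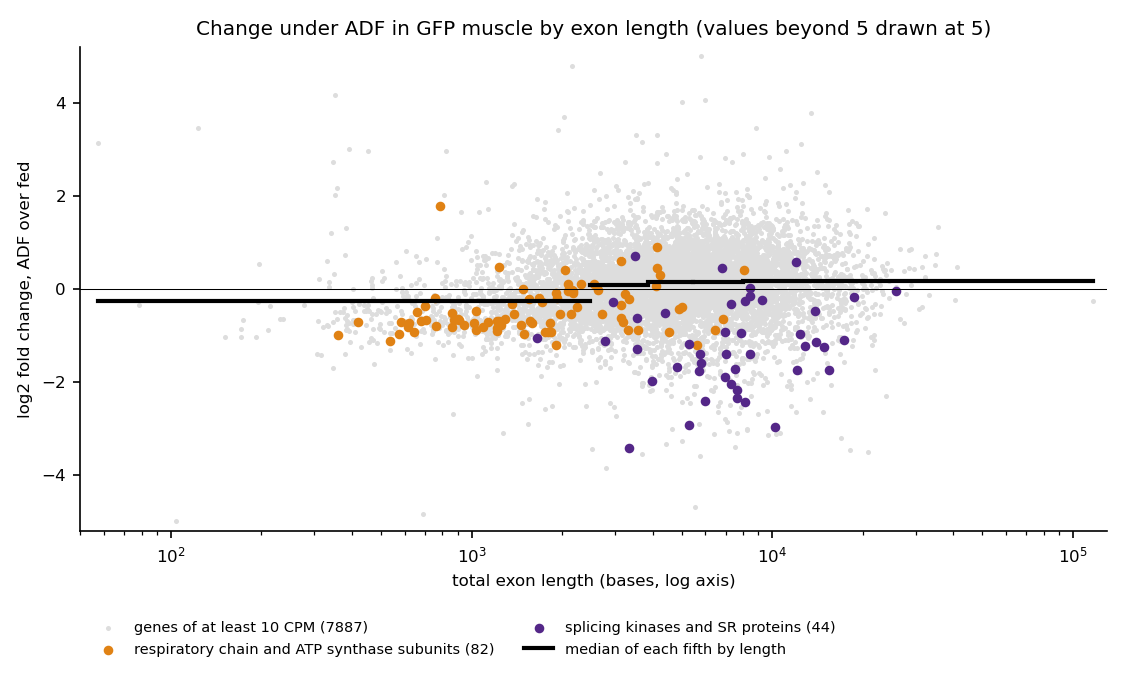
Log2 fold change (ADF over fed, vertical axis, drawn no further than 5 from 0) against exon length (log axis, bp) for 7887 genes of at least 10 CPM, in grey, with the median of each 20% of genes by length as a black line, the 82 respiratory subunits in orange and 44 splicing genes in purple. Most of the subunits sit at short lengths and most lie below 0. Most splicing genes lie below 0, at a median length of 7411 bp.

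Ribosomal protein genes leaned the same way, at median exon lengths of 1805 bp (cytosolic) and 2533 bp (mitochondrial). Of the cytosolic ones, 55 lie in the shortest bin, with 13 lower and a median of -0.55. The 25 longer ones had 7 lower and a median of -0.57. Of 80 cytosolic ribosomal proteins 20 were lower and 0 higher (median -0.55), for example Rpl26, with 162, 139 and 134 CPM in the ADF libraries, against 307, 266 and 272 CPM in the fed libraries (-0.96 ± 0.18, adjusted p = 0.00145). The count was 4 without ADF library 2, 10 without ADF library 1 or fed library 1, 11 without ADF library 3 or with the length trend removed, 13 with the 6 GFP libraries fitted alone, 31 with DESeq2, 34 with libraries scaled to their totals and 40 with genes of at least 10 CPM alone. Of 77 mitochondrial ribosomal proteins 7 were lower and 0 higher, led by Mrpl33, with 41.2, 41.8 and 42.9 CPM under ADF and 114, 91.4 and 121 CPM under feeding (-1.37 ± 0.21, adjusted p = 0.000202); that count was 3 without ADF library 3, 4 without ADF library 2 or fed library 3, 11 with libraries scaled to their totals and 20 with genes of at least 10 CPM alone. None of 31 genes of ribosome biogenesis was called, and 1 was without fed library 2.

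Some factors that start and drive translation rose, and a repressor of the process rose with them. Eif4ebp2, a repressor that holds the cap-binding protein eIF4E until mTORC1 releases it (chromosome 10, 61428491 to 61452661 in GRCm38), had 76.9, 55.3 and 61.2 CPM in the ADF libraries, against 1.22, 2.48 and 0.505 CPM in the fed libraries. It was close to undetected in fed muscle and its rise was 1 of the largest in the comparison (5.52 ± 0.66, adjusted p = 0.000132). Eef1a2, the elongation factor of adult muscle and neurons, had 2471, 1722 and 1780.3 CPM in the ADF libraries, against 545, 440.0 and 448 CPM in the fed libraries (2.06 ± 0.19, adjusted p = 8.47e-07). Eef2, which moves the ribosome along the message, had 1966, 1541 and 1558 CPM under ADF and 626, 779 and 646 CPM under feeding (1.31 ± 0.17, adjusted p = 3.63e-05). Neither elongation factor overlapped between diets. Eif4g1, the scaffold of the cap-binding complex, rose by 1.08 ± 0.20 and Eif4b, which helps its helicase, by 1.11 ± 0.17. Of 47 initiation and elongation genes 10 rose and 1 fell. The rises numbered 4 without ADF library 1 or with the 6 GFP libraries fitted alone, 5 without ADF library 2 or fed library 1, with libraries scaled to their totals or with the length trend removed and 6 without ADF library 3 or fed library 3. The falls numbered 0 without ADF library 2 or 3 or fed library 1, with no filter or with the 6 GFP libraries fitted alone and 2 with libraries scaled to their totals or with genes of at least 10 CPM alone. In the mTORC1 pathway 3 of 37 genes rose and 3 fell. Ddit4, which restrains mTORC1 under stress and glucocorticoids, had 21.2, 53.2 and 56.7 CPM in the ADF libraries, against 15.9, 7.79 and 12.5 CPM in the fed libraries (1.86 ± 0.39, adjusted p = 0.00419), whereas its relative Ddit4l had 119, 134 and 105 CPM under ADF and 208, 290.2 and 319 CPM under feeding (-1.19 ± 0.20, adjusted p = 0.000513). The falls in this pathway numbered 1 without ADF library 2 or with the length trend removed.

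Genes that control splicing fell in large number. Of 44 splicing kinases, SR proteins and related factors 26 were lower under ADF and 1 higher, with a median of -1.20, and between 21 and 26 were lower whichever library was left out. Rsrp1, an arginine and serine rich protein (chromosome 4, 134923592 to 134927671 in GRCm38), had 49.7, 74.2 and 72.5 CPM in the ADF libraries, against 758, 613 and 721 CPM in the fed libraries (-3.41 ± 0.19, adjusted p = 5.54e-10). Pnisr, another protein of the SR-related kind, had 18, 39.3 and 26.1 CPM in the ADF libraries, against 264, 188 and 198 CPM in the fed libraries (-2.96 ± 0.24, adjusted p = 1.46e-07). Ccnl2, a cyclin that partners splicing-linked kinases, had 18.3, 25 and 26 CPM under ADF and 182, 139 and 203 CPM under feeding (-2.92 ± 0.30, adjusted p = 2.93e-06). In each of these the highest ADF library lay below the lowest fed library by a wide margin. Ddx17, an RNA helicase, fell by 2.34 ± 0.24 (adjusted p = 2.14e-06) and Snrnp70, a protein of the U1 particle, fell by 2.18 ± 0.22 (adjusted p = 2.14e-06). The member that rose was Rbm24, a regulator of muscle-specific splicing (0.72 ± 0.17, adjusted p = 0.011), and no member was higher without ADF library 2 or without fed library 3. By the union of their annotated exons these genes are long (median 7411 bp), though a single transcript of such a gene can be shorter. With the trend in that length removed 27 of 44 were lower.

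Several long noncoding RNAs fell alongside them. Neat1, the scaffold of nuclear paraspeckles, had 112, 162 and 159.9 CPM in the ADF libraries, against 1810.0, 1458 and 1695 CPM in the fed libraries (-3.52 ± 0.21, adjusted p = 1.25e-09). Malat1, a resident of nuclear speckles, where splicing factors gather, had 76.4, 62.8 and 28.6 CPM in the ADF libraries, against 497, 348 and 327 CPM in the fed libraries (-2.80 ± 0.29, adjusted p = 6.37e-06). Both diets were fully separated in each. Meg3, an imprinted noncoding RNA, had 1.84, 10.9 and 3.47 CPM under ADF and 49.3, 39.2 and 89.8 CPM under feeding (-3.45 ± 0.64, adjusted p = 0.00414), and Snhg20, a host of a small nucleolar RNA, had 0.257, 4 and 0.597 CPM under ADF and 32.6, 17.9 and 20.4 CPM under feeding (-3.85 ± 0.79, adjusted p = 0.00419). Of 32 listed long noncoding RNAs 5 fell and 0 rose (median -1.17). The falls numbered 8 with no filter and 11 with DESeq2, and the rises 1 without ADF library 3, with no filter, with genes of at least 10 CPM alone or with DESeq2. By annotation class, 15 of 326 tested lincRNAs fell and 3 rose (4.6% and 0.92%), against 446 falls and 631 rises among 13505 protein-coding genes (3.3% and 4.67%). Where a locus is antisense to another gene, reads cannot be assigned to either, since the strand setting of the counting is not given in the sources used here.

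Of 15 Kruppel-like and C/EBP factors 3 rose and 0 fell; 12 were not called. Klf9, a Kruppel-like factor and glucocorticoid target, had 199.6, 218 and 206 CPM in the ADF libraries, against 30, 58.3 and 32.3 CPM in the fed libraries (2.37 ± 0.27, adjusted p = 8.07e-06). Klf15, which controls amino acid and lipid use in muscle, had 97.5, 66.6 and 59.6 CPM in the ADF libraries, against 12.2, 27.9 and 16.1 CPM in the fed libraries (1.99 ± 0.29, adjusted p = 0.000146), and Cebpd, a C/EBP factor, had 22.2, 17.5 and 35.5 CPM under ADF and 3.23, 6.56 and 5.86 CPM under feeding (2.26 ± 0.45, adjusted p = 0.0026). No ADF value of these 3 genes fell into the range of the fed values. Of 20 glucocorticoid targets 8 rose and 0 fell (median 0.86), a count that stayed at 7 or 8 with each library left out. Zbtb16, a zinc finger repressor, rose by 1.62 ± 0.31 and Glul, the glutamine synthetase, by 1.39 ± 0.26. Of 41 nuclear receptors and coregulators 4 rose and 0 fell, among them Thra, the thyroid hormone receptor alpha (1.14 ± 0.21, adjusted p = 0.00167). The count was 2 without ADF library 1 or 2, 7 without fed library 2 and 8 with no filter or with DESeq2. Nr4a3, an orphan receptor induced by cAMP, had 46.4, 20.2 and 12.8 CPM in the ADF libraries, against 0, 2.99 and 1.75 CPM in the fed libraries (4.05 ± 1.04, adjusted p = 0.0328), a call lost without ADF library 1 (0.101), ADF library 2 (0.0787) and fed library 3 (0.145). Ppargc1a, the coactivator PGC-1 alpha of mitochondrial genes, had 52.2, 47 and 24.5 CPM under ADF and 24.8, 17.7 and 44.4 CPM under feeding, overlapping and not called (adjusted p = 0.519).

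The start regions of 3 genes that rose are shown to set these changes beside their DNA: Pdk4 and Klf9, described above, and Rnf123, the ring finger ubiquitin ligase KPC1, which had 163, 110.3 and 99.5 CPM in the ADF libraries, against 38.3, 43.5 and 22.8 CPM in the fed libraries (1.83 ± 0.26, adjusted p = 8.73e-05). Klf9 and Rnf123 were chosen among called genes with large rises because their windows hold GTAAACA, so its presence in them is no finding. By the same choice of genes the window of Pcgf5 holds GTAAACA and that of Pde4d none of the motifs searched, and neither is printed. Each line gives 250 bases before and 50 after the annotated start, from RefSeq on GRCm38.p6, read on the gene's own strand. The windows are chr6:5496229-5496528 on the minus strand for Pdk4, chr19:23140976-23141275 on the plus strand for Klf9 and chr9:108079252-108079551 on the minus strand for Rnf123. Capitals mark the FoxO element GTAAACA and the glucocorticoid receptor element's core letters AGAACA.
Pdk4: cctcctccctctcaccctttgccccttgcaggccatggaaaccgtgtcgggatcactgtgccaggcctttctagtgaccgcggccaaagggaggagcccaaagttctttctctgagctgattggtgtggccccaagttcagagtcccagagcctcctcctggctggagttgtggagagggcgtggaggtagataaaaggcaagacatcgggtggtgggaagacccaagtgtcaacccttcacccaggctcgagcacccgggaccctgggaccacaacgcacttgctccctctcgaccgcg
Klf9: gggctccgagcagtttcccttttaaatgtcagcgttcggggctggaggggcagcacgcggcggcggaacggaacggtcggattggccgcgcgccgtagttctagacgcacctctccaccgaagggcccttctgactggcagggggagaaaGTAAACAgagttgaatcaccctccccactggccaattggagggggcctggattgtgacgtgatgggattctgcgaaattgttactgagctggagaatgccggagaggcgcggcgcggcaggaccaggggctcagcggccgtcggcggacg
Rnf123: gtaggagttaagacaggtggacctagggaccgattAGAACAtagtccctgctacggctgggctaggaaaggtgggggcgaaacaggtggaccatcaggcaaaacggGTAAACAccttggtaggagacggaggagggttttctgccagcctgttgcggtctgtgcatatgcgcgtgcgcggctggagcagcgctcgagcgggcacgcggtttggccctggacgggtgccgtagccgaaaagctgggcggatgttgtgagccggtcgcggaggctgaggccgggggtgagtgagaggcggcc

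The letters GTAAACA begin 100 bases before the start of Klf9 and 144 before that of Rnf123, and AGAACA 215 before that of Rnf123, all on the gene's own strand. None of the motifs searched lies in the Pdk4 window. Across 14258 windows of 11153 tested genes, searched on both strands for motifs of which none contains another, the shares of genes with a motif are given for genes that rose, that fell and for all. GTAAACA was in 3.5% of genes that rose, 3.27% of those that fell and 3.21% of all. AGAACA was in 13.6%, 15% and 15.2%, the cAMP response element TGACGTCA in 3.5%, 4.36% and 3.35%, and the E-box CACGTG in 11.1%, 8.99% and 11.4%. These are matches of letters within 300 bases and say nothing of binding.

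Genes of cAMP signalling, which leads to the CREB factors that Crtc2 serves, rose in part. Of 35 tested 8 rose and 0 fell (median 0.57), a count that was 5 without ADF library 2. Pde4d, a phosphodiesterase that removes cAMP, had 129.9, 107 and 114 CPM in the ADF libraries, against 28, 27.2 and 28.3 CPM in the fed libraries (2.07 ± 0.24, adjusted p = 1.06e-05). Adcy9, an adenylyl cyclase that makes cAMP, had 36.3, 24.7 and 21 CPM in the ADF libraries, against 3.7, 4.08 and 7.01 CPM in the fed libraries (2.47 ± 0.52, adjusted p = 0.00479). Atf1, a CREB family factor, had 35.5, 29.8 and 35.5 CPM under ADF and 6.93, 13.7 and 2.53 CPM under feeding (2.12 ± 0.47, adjusted p = 0.00702), and Prkar2a, a regulatory subunit of protein kinase A, rose by 1.40 ± 0.27. Adcy9 and Pde4d, which make and remove cAMP, were both higher, with no overlap between diets. Crtc2 itself had 19.7, 16.1 and 23.6 CPM in the ADF libraries, against 29.2, 17.3 and 24 CPM in the fed libraries, and Creb1 had 10, 10.4 and 11.4 CPM under ADF and 9.02, 14.4 and 14.2 CPM under feeding; both overlapped and neither was called (adjusted p = 0.721 and 0.854). Of 23 immediate early genes 1 rose, Jun, an AP-1 factor (1.25 ± 0.23, adjusted p = 0.00117), and a further member was called without fed library 3.

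Genes of insulin signalling moved in both directions. Irs2, an adaptor of the insulin receptor, had 16.9, 11.2 and 9.91 CPM in the ADF libraries and 0 CPM in each fed library. With 3 counts a library as the floor, it was at least 118-fold higher under ADF (adjusted p = 4.82e-05), a bound for counting error only. Gsk3b, the kinase that restrains glycogen synthase, rose by 1.30 ± 0.23, and Igfbp5, a binding protein of insulin-like growth factors, fell, with 262, 348 and 389 CPM in the ADF libraries, against 842, 707 and 616 CPM in the fed libraries (-1.12 ± 0.24, adjusted p = 0.00521). Of 33 genes of insulin and IGF signalling 6 rose and 1 fell. The rises numbered 2 without ADF library 1 or fed library 3 and 3 without ADF library 2 or 3, with libraries scaled to their totals, with the 6 GFP libraries fitted alone or with the length trend removed. The falls numbered 2 without ADF library 2 or fed library 2, with no filter or with DESeq2. Igf1 had 6.77, 41.3 and 15.8 CPM under ADF and 16.9, 23.9 and 27.4 CPM under feeding and was not called (adjusted p = 0.978). In the AMP-activated kinase, the cell's energy sensor, subunits moved apart. Prkag3, the gamma subunit of fast muscle, had 58.5, 54.7 and 72.5 CPM in the ADF libraries, against 340.2, 276 and 173 CPM in the fed libraries (-2.09 ± 0.25, adjusted p = 1.87e-05), and Prkaa2, the catalytic subunit alpha-2, had 202, 263 and 234 CPM under ADF and 46.1, 138 and 94.6 CPM under feeding (1.33 ± 0.30, adjusted p = 0.0096). Sirt4, a mitochondrial sirtuin, had 4.67, 4.48 and 1.19 CPM in the ADF libraries, against 18, 18.3 and 22.7 CPM in the fed libraries (-2.51 ± 0.51, adjusted p = 0.00311). Vegfa, the vessel growth factor, fell as well, with 152, 131 and 121 CPM under ADF and 477, 316 and 399.5 CPM under feeding (-1.56 ± 0.19, adjusted p = 2.04e-05).

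Of the clock genes 17.4% were called, near the 13.6% of all genes of at least 10 CPM. The labels do not give the sampling hour. Per3, a period gene, had 11.8, 23.3 and 23.8 CPM in the ADF libraries, against 91.4, 65.6 and 80.4 CPM in the fed libraries (-2.01 ± 0.30, adjusted p = 0.000178), fully below the fed range. Nr1d1, the repressor Rev-erb alpha, had 131, 85.3 and 119.9 CPM in the ADF libraries, against 71.3, 36.2 and 31.9 CPM in the fed libraries (1.27 ± 0.29, adjusted p = 0.00768), fully above it. Dbp, a clock output factor, had 38.9, 37.7 and 40.3 CPM under ADF and 63.2, 81.6 and 71.4 CPM under feeding (-0.89 ± 0.26, adjusted p = 0.0411), a call that was lost with any single library left out, at adjusted p-values from 0.0501 to 0.141. Per1 and Per2 lay in opposite directions without passing (1.10 ± 0.34, adjusted p = 0.0547, and -1.29 ± 0.41, adjusted p = 0.0636). Per1 passed with no filter (0.00119), with DESeq2 (0.0398), with the 6 GFP libraries alone (0.0342) and with counts halved (0.0458). Per2 passed with genes of at least 10 CPM alone (0.0265), with DESeq2 (0.0323) and with the 6 GFP libraries alone (0.0485). Arntl, the core activator, had 7.37, 13.2 and 8.25 CPM under ADF and 0, 7.41 and 0.135 CPM under feeding and was not called (adjusted p = 0.485), but without fed library 2 it was (6.97, adjusted p = 0.000954). Of 23 clock genes 2 rose and 2 fell. The rises numbered 1 without ADF library 1, 2 or 3 or fed library 1, with libraries scaled to their totals or with the length trend removed. The falls numbered 1 without ADF library 1, 2 or 3 or fed library 1, 2 or 3.

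Some genes of protein breakdown rose, among them ubiquitin ligases and starters of autophagy. Fbxo32, the muscle ubiquitin ligase atrogin-1, had 819.9, 623 and 777 CPM in the ADF libraries, against 81.5, 108 and 128 CPM in the fed libraries (2.80 ± 0.27, adjusted p = 2.93e-06). Trim63, the ligase MuRF1 that acts on thick filament proteins, had 491, 364 and 593 CPM in the ADF libraries, against 178, 179 and 174 CPM in the fed libraries (1.45 ± 0.33, adjusted p = 0.0146), with no overlap, though its call was lost without ADF library 1 (0.0575), ADF library 3 (0.0678), fed library 1 (0.0715), fed library 2 (0.059) and fed library 3 (0.0664). Ubr4, a very large ligase of the N-end rule kind, had 370.0, 239 and 301 CPM under ADF and 134, 108 and 103 CPM under feeding (1.40 ± 0.20, adjusted p = 0.000107). Of 29 muscle ubiquitin ligases 9 rose and 0 fell. The rises numbered 3 without fed library 1, 4 without ADF library 1 or fed library 3 and 5 without ADF library 2 or 3. The falls numbered 1 without fed library 2 or 3 and 2 with genes of at least 10 CPM alone. Of 39 Kelch-like adaptors, which bring substrates to cullin ligases, 6 rose and 1 fell. Klhl21 had 269, 218 and 229 CPM in the ADF libraries, against 58.7, 118 and 67.4 CPM in the fed libraries (1.55 ± 0.23, adjusted p = 0.000178) and Klhl31 had 169, 216 and 209.9 CPM under ADF and 423, 464 and 449 CPM under feeding (-1.17 ± 0.17, adjusted p = 0.000103), so members of this family moved in opposite directions. The rises numbered 3 without fed library 1 or with the 6 GFP libraries fitted alone. Of 37 proteasome subunits 4 rose and 1 fell (median 0.01, and -0.10 when libraries were scaled to their totals), with Psmd1, a large subunit of the regulatory cap, that with the smallest adjusted p (1.50 ± 0.21, adjusted p = 8.56e-05). The rises numbered 2 without ADF library 1 or fed library 3. The falls numbered 0 without ADF library 1, 2 or 3 or fed library 1 or 3, with no filter, with the 6 GFP libraries fitted alone or with the length trend removed, 2 with DESeq2 and 3 with libraries scaled to their totals or with genes of at least 10 CPM alone.

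In autophagy 7 of 35 genes rose and 0 fell, a count that was 3 without ADF library 1. Atg9a, the membrane protein that seeds autophagosomes, had 102, 101 and 94.3 CPM in the ADF libraries, against 6.89, 16.1 and 18.6 CPM in the fed libraries (2.84 ± 0.30, adjusted p = 2.93e-06). Ulk1, the kinase that starts the process, had 133, 90 and 116 CPM under ADF and 32.7, 42.7 and 49.4 CPM under feeding (1.44 ± 0.27, adjusted p = 0.00151). Sqstm1, the cargo receptor p62, rose by 0.96 ± 0.18 and Psap, the precursor of lysosomal sphingolipid activators, by 0.90 ± 0.17. Chaperones of the heat shock family had 7 of 36 higher and 0 lower. The falls numbered 1 without fed library 1, with libraries scaled to their totals or with genes of at least 10 CPM alone. Bag3, which clears damaged filamin at the Z-disc, had 277, 225 and 208 CPM in the ADF libraries, against 92.8, 82.4 and 108 CPM in the fed libraries (1.32 ± 0.18, adjusted p = 8.21e-05). Hspb7, a small heat shock protein of striated muscle, had 1971, 1241 and 1281 CPM under ADF and 588, 528 and 536 CPM under feeding (1.44 ± 0.25, adjusted p = 0.00108). Their partner Flnc, the muscle filamin, had 1632, 866 and 1266 CPM in the ADF libraries, against 511, 467 and 528 CPM in the fed libraries (1.32 ± 0.26, adjusted p = 0.00415), all 3 ADF libraries above the fed ones. Of FoxO factors and targets 5 of 19 rose, of which Rbl2, a pocket protein related to the retinoblastoma protein, kept its call throughout (1.39 ± 0.24, adjusted p = 0.00068). The count was 1 with the 6 GFP libraries fitted alone, 2 without ADF library 1 or 2 or with libraries scaled to their totals and 3 without ADF library 3 or fed library 1, 2 or 3. Ddit3, the stress factor CHOP, fell, with 20.5, 20.3 and 12.4 CPM under ADF and 38.6, 46.1 and 50.9 CPM under feeding (-1.35 ± 0.30, adjusted p = 0.00612). Of branched-chain amino acid catabolism 5 of 28 genes rose, led by Bckdha, a subunit of the dehydrogenase that commits these amino acids to oxidation (1.38 ± 0.25, adjusted p = 0.00145). The count was 1 without ADF library 2 or fed library 1, 2 without ADF library 1 or fed library 2 or with libraries scaled to their totals and 3 with the 6 GFP libraries fitted alone or with the length trend removed.

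Genes of the contractile apparatus moved both ways. Acta1, the skeletal alpha-actin, had 61502, 43045 and 45381 CPM in the ADF libraries, against 24545, 25016 and 20130.2 CPM in the fed libraries (1.11 ± 0.18, adjusted p = 0.000357). Atp2a1, the calcium pump SERCA1 of fast fibres (chromosome 7, 126445858 to 126463108 in GRCm38), had 37292, 26812 and 27944 CPM in the ADF libraries, against 12141, 11591 and 9882 CPM in the fed libraries (1.45 ± 0.18, adjusted p = 3.09e-05). The lowest ADF library was above the highest fed library in both. Mylpf, the regulatory light chain of fast myosin, had 18049, 14354 and 13089.8 CPM under ADF and 29279, 27105 and 23154 CPM under feeding (-0.81 ± 0.19, adjusted p = 0.00945), and its call was lost without fed library 1 (0.0537). Myl1, the fast essential light chain, fell by 0.58 ± 0.16, a call lost without ADF library 2 (0.0612), ADF library 3 (0.0975) and fed library 1 (0.138); with the length trend removed neither light chain was called. The fast myosin heavy chain Myh4 had 35212, 19812 and 30086 CPM in the ADF libraries, against 43772, 37014 and 22431 CPM in the fed libraries and was not called (adjusted p = 0.785); nor were Myh1, Myh2 and Myh7 (adjusted p = 0.981, 0.887 and 0.946). Of 33 genes of the sarcomere's scaffold and Z-disc 13 rose and 2 fell. The rises numbered 8 without ADF library 1 or fed library 1. Nrap, an anchor protein of myofibril assembly, had 2737, 1793 and 1896 CPM in the ADF libraries, against 823, 721 and 787 CPM in the fed libraries (1.46 ± 0.18, adjusted p = 2.04e-05). Synpo2, a Z-disc actin binder, rose by 1.30 ± 0.18 and Neb, the nebulin that runs along thin filaments, by 0.86 ± 0.19. The falls of that group numbered 0 without ADF library 2 and 1 without ADF library 1 or 3 or fed library 1 or 2, with the 6 GFP libraries fitted alone or with the length trend removed.

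Of 36 genes of calcium handling and excitation coupling 4 rose and 2 fell. The falls, of Stac3, an adaptor of the calcium channel (-0.77 ± 0.19), and Sln, sarcolipin, an inhibitor of the calcium pump (-0.93 ± 0.28), numbered 0 without ADF library 3 or fed library 1 and 1 without ADF library 1 or 2 or fed library 2 or 3, with libraries scaled to their totals or with the length trend removed. Cacna1s, the voltage sensor of contraction, had 887, 680.0 and 664 CPM in the ADF libraries, against 271, 363 and 272 CPM in the fed libraries (1.30 ± 0.18, adjusted p = 9.01e-05), and Ryr1, the calcium release channel it opens, had 4418, 2892 and 3291 CPM under ADF and 1913, 1659 and 1384 CPM under feeding (1.10 ± 0.19, adjusted p = 0.000708). Scn4a, the muscle sodium channel, had 454, 374 and 352 CPM in the ADF libraries, against 174, 151 and 99.1 CPM in the fed libraries (1.47 ± 0.21, adjusted p = 8.75e-05). Kcnj11, the pore of the ATP-sensitive potassium channel, had 81.3, 49.9 and 54 CPM in the ADF libraries, against 1.61, 12.5 and 6.67 CPM in the fed libraries (3.15 ± 0.51, adjusted p = 0.000832). In each of these genes the diets were separated. Of 32 ion channels and pumps 6 rose and 2 fell. The falls numbered 0 without ADF library 2 or 3 and 1 without ADF library 1 or fed library 1 or 2 or with the 6 GFP libraries fitted alone. The dystrophin complex, which ties the fibre to its matrix, had 4 of 18 higher: Dag1, its dystroglycan (1.64 ± 0.17), Dmd, dystrophin (1.64 ± 0.23), Nos1, the neuronal nitric oxide synthase it holds (1.82 ± 0.23), and Sspn, sarcospan (0.99 ± 0.21). Nos1 had 222, 186 and 172 CPM under ADF and 64.3, 66 and 33.7 CPM under feeding (adjusted p = 3.53e-05). Cav3, the muscle caveolin, fell by 0.74 ± 0.22, and its call was lost without ADF library 1 (0.0672), ADF library 2 (0.152), ADF library 3 (0.171), fed library 1 (0.198) and fed library 2 (0.0545). None of 20 genes of the neuromuscular junction and denervation was called. The falls numbered 1 without fed library 2, with no filter or with the 6 GFP libraries fitted alone and 2 without fed library 3, with genes of at least 10 CPM alone or with DESeq2. Among myogenic factors 4 of 25 rose, with Mef2d, a muscle transcription factor, at 409, 333 and 311 CPM in the ADF libraries, against 147, 151 and 162 CPM in the fed libraries (1.19 ± 0.17, adjusted p = 0.000134). The count was 2 without fed library 1 or with libraries scaled to their totals.

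Some genes of the matrix around the fibres rose. Mmp2, a gelatinase, had 144, 220.2 and 195 CPM in the ADF libraries, against 62.6, 66.6 and 87.2 CPM in the fed libraries (1.37 ± 0.24, adjusted p = 0.00101), and Timp3, an inhibitor of such enzymes held in the matrix, had 61.9, 99.4 and 62.4 CPM under ADF and 29.9, 22.3 and 32.8 CPM under feeding (1.40 ± 0.29, adjusted p = 0.00438). Both were separated between diets. Of 36 genes of matrix remodelling 6 rose and 0 fell (median 0.78), a count that was 2 without ADF library 2 or 3 or fed library 2 or with libraries scaled to their totals, 10 without fed library 3 and 11 with no filter. Of 38 collagens 0 rose and 2 fell: Col7a1, of anchoring fibrils, had 10.4, 2.36 and 8.39 CPM in the ADF libraries, against 76.4, 60 and 47.9 CPM in the fed libraries (-3.13 ± 0.51, adjusted p = 0.0016), and Col24a1, a fibrillar collagen, had 4.07, 5.86 and 8.09 CPM under ADF and 78.5, 32.8 and 44.2 CPM under feeding (-3.11 ± 0.46, adjusted p = 0.000157). The rises of collagens numbered 1 without fed library 3 and 8 with no filter. The summed markers of fibroblasts ran from 2130 to 3400 CPM under ADF and from 1050 to 2170 CPM under feeding, with 2 of 11 called higher. Macrophage markers summed to 528 to 837 CPM under ADF and to 395 to 468 CPM under feeding, with 0 of 12 called, with no overlap. Tendon markers summed to 275 to 579 CPM under ADF and to 177 to 280 CPM under feeding, with 0 of 7 called. Satellite cell markers summed to 65.2 to 99.1 CPM under ADF and 42.5 to 61.2 CPM under feeding (0 of 7 called). Sums for endothelial cells (444 to 662 against 442 to 869 CPM), smooth muscle (357 to 547 against 426 to 757 CPM), adipocytes (4250 to 5950 against 3980 to 4900 CPM), T and NK cells (34.4 to 83.5 against 52.5 to 123 CPM), neutrophils (2.78 to 9.16 against 6.26 to 25 CPM), red cells (121 to 396 against 81.9 to 155 CPM) and Schwann cells (76.6 to 115 against 73.4 to 279 CPM) overlapped between ADF and feeding. B and plasma cell markers ran from 211 to 3510 CPM under ADF, with ADF library 3 at the top, and from 1270 to 2390 CPM under feeding. Lep and Ngp were at 0 in all ADF libraries, and Gzma, Ly6g and Ngp in all fed libraries. The part of these cells in the matrix results was not tested.

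Several strong changes belonged to none of these groups. Anxa11, a calcium-dependent membrane binder, had 137, 92.9 and 109 CPM in the ADF libraries, against 4.84, 12.9 and 16.6 CPM in the fed libraries (3.30 ± 0.41, adjusted p = 9.22e-05), and Ston2, an endocytic adaptor, had 29.8, 44.6 and 50.4 CPM under ADF and 8.23, 4.97 and 1.15 CPM under feeding (3.12 ± 0.50, adjusted p = 0.000406). Among the falls, Sec14l5, a lipid-binding protein, had 2.23, 2.33 and 3.42 CPM in the ADF libraries, against 48.7, 19.2 and 29 CPM in the fed libraries (-3.60 ± 0.45, adjusted p = 2.64e-05). Xpo6, the exporter that carries actin out of the nucleus, had 9.51, 14 and 15 CPM in the ADF libraries, against 152, 105 and 100.3 CPM in the fed libraries (-3.21 ± 0.31, adjusted p = 9.95e-07). Myo5c, a transport myosin, had 3.64, 5.89 and 10.4 CPM under ADF and 61.9, 56.6 and 56.6 CPM under feeding (-3.13 ± 0.38, adjusted p = 1.74e-05). The locus of Mir133a-2, a hairpin of a muscle microRNA, had 0.0857, 0.837 and 0.38 CPM in the ADF libraries, against 21.7, 19.3 and 19.4 CPM in the fed libraries (-5.49 ± 0.73, adjusted p = 5.36e-05); an mRNA library counts longer transcripts that cross such a locus, so this is no measure of the mature microRNA. All of these were chosen among called genes whose diets did not overlap, so that separation is no finding. Their calls held with each library left out.

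Some genes had been singled out whatever their result. Angptl4, a lipase inhibitor that fasting raises in several tissues, had 15.4, 31 and 13.6 CPM in the ADF libraries, against 0, 2.41 and 13.4 CPM in the fed libraries, with a wide spread in both diets, and was not called (1.92 ± 1.19, adjusted p = 0.428). Nr4a1, an orphan receptor of the Nr4a family, had 156, 158 and 148 CPM under ADF and 137, 104 and 60.8 CPM under feeding; the ADF values lay above the fed ones, and the difference was not called (0.62 ± 0.24, adjusted p = 0.146). Mstn, the myostatin that limits muscle growth, had 21.5, 12.1 and 25.7 CPM under ADF and 8.94, 13.1 and 6.1 CPM under feeding, overlapping (adjusted p = 0.198). Fndc5, the precursor of irisin, had 139, 91.9 and 72.9 CPM under ADF and 65.9, 98.3 and 141 CPM under feeding, overlapping as well, with a log2 fold change of -0.01 ± 0.27. Fgf21, a hormone of fasting, had 0 counts in each of the 6 libraries, at a floor of 3 counts or 0.08 to 0.13 CPM, and was not tested.

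The same diets were compared in Crtc2 muscle, whose 6 libraries are separate from those above. Nothing says that the mice are separate, and a kit that followed the diet would be shared by both comparisons. Shared signs are therefore not an independent repeat. There 1758 genes were called (11%), 1009 higher (6.3%) and 749 lower (4.68%), or 511 higher and 1234 lower with libraries scaled to their totals. Of the 650 genes higher in GFP muscle 473 were also higher in Crtc2 muscle (72.8% of the GFP list, 46.9% of the Crtc2 list), and of the 490 lower genes 288 were lower there (58.8% and 38.5%). The sign was shared by 97.7% of the genes that rose and 98.2% of those that fell, called or not. Eif4ebp2 had log2 fold changes of 5.52 with GFP and 4.92 with Crtc2, Pdk4 3.31 with GFP and 3.20 with Crtc2, Neat1 -3.52 with GFP and -3.27 with Crtc2 and Rsrp1 -3.41 with GFP and -3.28 with Crtc2. The splicing group, with 26 lower in GFP muscle, had 28 of 44 lower and 0 higher in Crtc2 muscle. The difference between the responses was tested gene by gene as an interaction: 0 of 16007 genes were called (0%), 1240 had an unadjusted p under 0.05, the smallest adjusted p was 0.174, and DESeq2 called 105. A response called in one muscle and not in the other is therefore not shown to differ.

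Respiratory subunits and matrix genes are set side by side here for both vectors. No rule fixed beforehand chose these groups. Of the 82 subunits, 41 were lower and 2 higher in GFP muscle, against 4 lower and 11 higher in Crtc2 muscle, with medians of -0.65 and -0.12. In the interaction 24 of the 82 had an unadjusted p under 0.05, against 1240 of all 16007 genes tested, and 0 were called. Cox7a1 changed by -1.11 with GFP and -0.52 with Crtc2, where it was not called. In matrix remodelling, 6 of 36 were higher in GFP muscle, against 0 higher and 1 lower in Crtc2 muscle, with 10 of 36 at an unadjusted interaction p under 0.05 and 0 called. Nid1, nidogen-1 of basement membranes, changed by 1.09 with GFP and -0.25 with Crtc2, and its call in GFP muscle was lost without ADF library 2 (0.111), ADF library 3 (0.0552), fed library 1 (0.0615) and fed library 2 (0.0917). Stard10, a phospholipid transfer protein, was the only gene called in opposite directions, with 35.4, 31.8 and 26 CPM in the ADF libraries, against 53.3, 54.8 and 57.8 CPM in the fed libraries in GFP muscle (-0.83 ± 0.23, adjusted p = 0.026) and a log2 fold change of 0.77 in Crtc2 muscle. Its interaction had an adjusted p of 0.174, and its call in GFP muscle was lost without ADF library 2 (0.0887), ADF library 3 (0.154) and fed library 3 (0.066). Irs2, at 0 in fed GFP muscle, rose by 2.76 ± 0.88 in Crtc2 muscle (interaction adjusted p = 0.174).

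**Figure D4:**
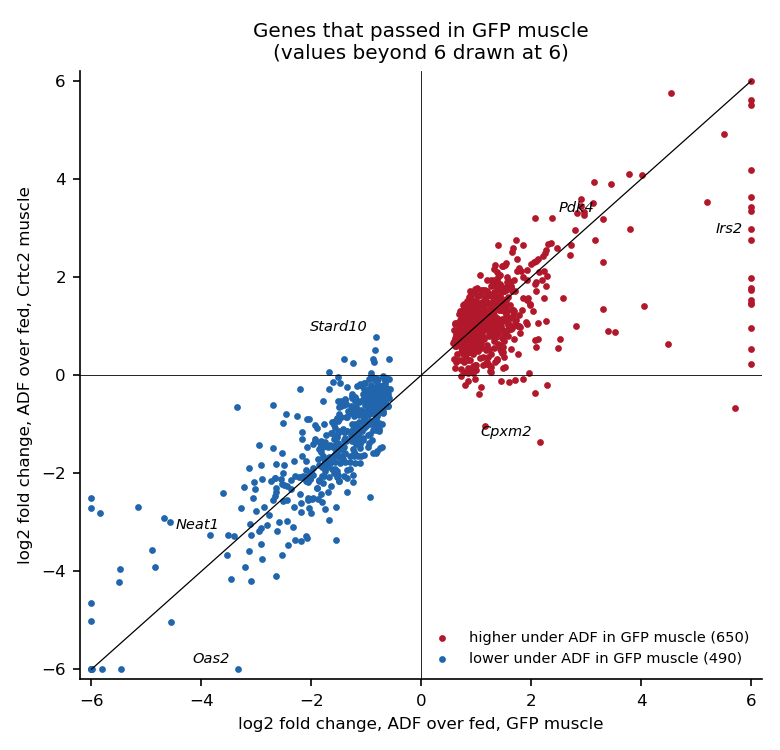
Log2 fold change (ADF over fed) of the 1140 genes called in GFP muscle, with GFP muscle on the horizontal and Crtc2 muscle on the vertical axis, both drawn no further than 6 from 0, with the 650 genes higher under ADF in red and the 490 lower in blue. Most points lie in the quadrants of shared sign, as given by the 97.7% and 98.2% in the text.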

How the data were processed

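Muscle RNA was prepared with TRIzol and an RNeasy kit, per the labels' protocols. The authors deposited unnormalized whole-number counts of reads for each Ensembl gene. The tools in the submitters' processing notes are DESeq2 1.18.1, featureCounts (Subread 1.6.1), SAMtools 1.7 and HISAT2 2.0.5, with the builds GRCm38 and mm10; the role of each, the strand setting and the annotation release are not given in the sources used here. Between 68.9 and 74.6% of counts from 2 to 21 in these 6 libraries were even numbers, whose cause was not tested; halving the counts was an alternative.

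Gene symbols, positions and exon lengths (the union of a gene's annotated exons) are from GENCODE M21 on GRCm38, which held 22582 of the 22607 genes (99.9%). Genes were kept by filterByExpr over 4 groups of 3 libraries. Counts were scaled by trimmed means of M values (TMM), and CPM uses the TMM-scaled library sizes. The quasi-likelihood model of edgeR 4.0.16 (R 4.3.3, robust) was fitted to all 12 libraries with 4 group means, and p-values were adjusted by Benjamini-Hochberg over 16007 genes, with a threshold of 0.05. The standard error is the log2 fold change divided by the root of its F statistic. An exact test of a single gene with 3 against 3 libraries could not go below 0.1. As a check of the code, the fit was also run on simulated counts with known changes, whose recovery is not reported here. Those counts were drawn with the fitted trend of the spread and did not copy the outlying fed libraries. No 2 libraries of a group were duplicates (74.9 to 86.8% of genes differed by more than Poisson counting).

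The gene lists and the rule for named genes were chosen with earlier results of these data known, and no list was tested as a set. Named were the 12 largest rises and falls by log2 fold change (mean of at least 10 CPM, no overlap), the 10 largest by mean CPM, up to 5 called members of each list with the smallest adjusted p, and fixed names; Rbm24 and Atp5a1 were added after their values were seen. A few genes that the rule names are not reported here. Promoters were shown by a further rule: fixed genes, and called genes with large rises that hold GTAAACA. Of 1140 called genes, 881 had a promoter in the RefSeq table. Alternatives were the scaling (DESeq2 size factors, library totals), the filter, DESeq2 1.42.0, the 6 GFP libraries alone, the replicate number as a block, halved counts and leaving out each library. Removing a length trend from each library (loess span 0.3) was added after seeing the data.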

Additional observations from a re-analysis of the deposited data

How the results depend on the processing

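In GFP muscle the number of genes called lower was 750 when only genes of at least 10 CPM were fitted and 795 with DESeq2, against 490; the other scalings, no filter, halved counts, the 6 GFP libraries alone and the length correction kept the total between 840 and 1468. Leaving out each library in turn gave 677 to 1230 genes, 382 to 714 higher and 265 to 516 lower; 287 of the 650 higher and 187 of the 490 lower genes were called in all 6 of these fits. With the replicate block the total was 606, with 345 higher and 261 lower. Same-numbered ADF and fed GFP libraries did not deviate together (correlations of 0.03, 0.01 and -0.02), so no pairing by number was seen between the diets. Whether numbers pair GFP with Crtc2 libraries, or mark a shared batch, was not tested. In Crtc2 muscle library totals gave 511 higher and 1234 lower genes, and DESeq2 gave 1380 lower; the interaction had 67 calls with no filter, 105 with DESeq2 and 0 to 3 with a GFP library left out. These Crtc2 and interaction settings, like the length correction, were chosen after seeing the data, and the causes of these shifts were not tested. Of 245 named genes that were called, 144 were called under every alternative and none changed direction. The replicate block ended 69 of these 245 calls, the most of any setting. Among them were Acadm (adjusted p = 0.0602), Neb (0.0749), Ddit4 (0.0637) and Mylpf (0.0601). Most group counts above are given without that setting. Among named genes that were not called, Angptl4 passed with no filter (adjusted p = 0.016), Nr4a1 without fed library 1 (0.0359), Arntl without fed library 2 (0.000954), and Per1 and Per2 under 5 and 3 alternatives, with the block at 0.0316 for Per1. The log2 fold change of Myh1 (0.03) was -0.01 with DESeq2 and its size factors, -0.099 with library totals, -0.073 above 10 CPM, -0.011 with the replicate block and -0.025 with the length correction. Myh7 was 0.095 with the block and Fndc5 0.003 with the length correction. With single libraries left out the values ran from -0.049 to 0.383 for Myh2, from -0.21 to 0.22 for Myh1, from -0.56 to 0.74 for Myh7, from -1.01 to 0.33 for Igf1 and from -0.30 to 0.31 for Fndc5. None of 2541 genes below 1 CPM was called in edgeR's test, where 299 had an unadjusted p under 0.05. DESeq2 called 78 of the 1773 of them to which it gave an adjusted p. A floor of 3 counts was 0.08 to 0.13 CPM per library.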

Other observations

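Genes of mitochondrial upkeep and oxygen sensing were also among those called. Mfn2, which fuses mitochondria, had 1087, 944 and 747 CPM in the ADF libraries, against 281, 447 and 388 CPM in the fed libraries (1.32 ± 0.19, adjusted p = 0.000107), and Clpx, the unfoldase of a mitochondrial protease, rose by 1.33 ± 0.22. Of 29 genes of mitochondrial dynamics and quality 6 rose and 1 fell. The rises numbered 2 without ADF library 1 or 2 or with the 6 GFP libraries fitted alone and 3 without fed library 1 or 3 or with libraries scaled to their totals. The falls numbered 0 without ADF library 2 or 3 or fed library 2 or with the 6 GFP libraries fitted alone, 2 with libraries scaled to their totals and 3 with genes of at least 10 CPM alone or with DESeq2. Slc25a12, an aspartate and glutamate carrier of the inner membrane, had 752, 715 and 537 CPM under ADF and 291, 415 and 355 CPM under feeding (0.92 ± 0.17, adjusted p = 0.00175). Epas1, the hypoxia factor HIF-2 alpha, had 239.8, 257 and 213 CPM in the ADF libraries, against 74.6, 107 and 134 CPM in the fed libraries (1.17 ± 0.20, adjusted p = 0.000687), and Hif1an, an enzyme that restrains hypoxia factors, rose by 0.93 ± 0.21. Nfe2l1, a transcription factor that drives proteasome genes, had 1215, 1005 and 898 CPM under ADF and 523, 532 and 513 CPM under feeding (0.99 ± 0.17, adjusted p = 0.000706). Slc38a3, a glutamine transporter, fell, with 82.8, 75.7 and 73.9 CPM in the ADF libraries, against 263, 203 and 149 CPM in the fed libraries (-1.40 ± 0.25, adjusted p = 0.000917). Of 332 zinc finger proteins with Zfp symbols 3 rose and 4 fell. The rises numbered 1 without ADF library 1 or 3 or with the 6 GFP libraries fitted alone, 5 with DESeq2, 6 without fed library 2 and 7 with no filter. The falls numbered 7 without fed library 2 and 8 with DESeq2. Zfp956 had 7.62, 5.38 and 5.67 CPM under ADF and 47, 28.9 and 31.9 CPM under feeding (-2.53 ± 0.37, adjusted p = 0.000159), and Zfp106, an RNA-binding protein needed by motor nerves and muscle, rose by 0.83 ± 0.18.

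Of the 1140 genes called, 11 were at 0 in every fed library and 3 at 0 in every ADF library. How many genes were so among all those tested is not given here. Weakly measured genes (means from 1 to 3 CPM) had zeros at 32.7, 12.1 and 27.6% in fed libraries 1, 2 and 3. The matching shares for ADF libraries 1, 2 and 3 were 19.4, 5.87 and 10.3%. Whether such zeros account for the 11 against 3 was not tested. Besides Irs2, the called genes at 0 under feeding include Cyp26b1, which degrades retinoic acid. Its mean was 5.53 CPM under ADF and 0 CPM under feeding, at least 51.6-fold higher against 3 counts per library (adjusted p = 0.00833). Vash1, vasohibin-1, an angiogenesis inhibitor, had a mean of 5.93 CPM under ADF and 0 CPM under feeding, at least 55.4-fold higher (adjusted p = 0.0034). Both bounds are for counting error only. Both genes were chosen after their values were seen, and both calls held with each library left out. With the replicate block both calls were lost (adjusted p = 0.0719 for Cyp26b1 and 0.0629 for Vash1). In Crtc2 muscle Vash1 changed by 0.54 and was not called (adjusted p = 0.874), and its interaction was not called (adjusted p = 0.321).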
